A study of Bos taurus with 20 samples.

Results

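The extracellular matrix of the endometrium is a network of collagens, adhesive glycoproteins and proteoglycans that is rebuilt through the oestrous cycle and before the conceptus attaches. Metalloproteases cut it, tissue inhibitors of metalloproteases (TIMPs) block them, and transglutaminases cross-link its proteins. The balance between these activities is known to govern how firm the stroma is and how cells adhere to it.

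The 8 genes described here cover these roles: the matrix glycoproteins TNC, FBLN1 and ABI3BP, the inhibitors TIMP1 and TIMP3, the proteases ADAMTS4 and MEP1B, and the cross-linking enzyme TGM2. They comprise every spotted cDNA clone whose single symbol in the platform's gene table is 1 of these 8, which is 22 of 3072 clones and 22 of the 339 clones with 1 symbol. The 18KB array, made from a subtracted library enriched for transcripts of pregnant animals, held 4 of them: 2 clones of TGM2 and 1 each of MEP1B and ABI3BP. The 18KO array, from the library enriched in the opposite direction, held 18: 14 clones of TNC and 1 each of TIMP1, TIMP3, ADAMTS4 and FBLN1. None of the genes (0) was named on both arrays, and a gene's array goes with the direction in which that library was enriched.

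The animals were Simmental (Deutsches Fleckvieh) heifers whose cycles had been synchronised with cloprostenol. The 4 pregnant heifers (17 to 20 months old) had been inseminated with cryo-conserved sperm, and a conceptus was found and taken out of the uterus on day 18. The 6 controls (18 to 22 months old) had received the supernatant of centrifuged sperm of the same bull, carried no conceptus and were sampled on day 18 of the cycle. The sample was intercaruncular endometrium of the caudal uterine horn on the ipsilateral side, and both arrays were probed with phosphorus-33 labelled cDNA from each animal. The 18KO array of pregnant 316 was blurred, was hybridised again later with samples of 2 other animals, and was placed among the others by its ratios to them.

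Intensities are spot signals on a linear scale in arbitrary units, and changes are differences of mean log2 intensity (pregnant minus control), given with the standard error that limma estimated. To be called, a gene or clone had to change at least 2-fold and pass 0.01 after Benjamini-Hochberg adjustment over everything on its array. Column medians ran from 1.38 to 1.90 in controls and from 2.50 to 3.18 in pregnant animals on the 18KB array, and from 2.02 to 3.90 and from 1.67 to 2.36 on the 18KO array. The authors chiefly sequenced, and so named, clones that they had found to differ between these same animals, and the counts below are therefore not independent evidence of a direction. In whole tissue, fewer cells of a type and less RNA per cell cannot be told apart. The stromal markers COL1A1, COL1A2 and COL3A1 gave summed intensities of 107 to 1420 over all animals of the 18KB array. The epithelial markers CLDN4 and CLDN10 gave 1.75 to 32.6 and 0.586 to 11.6 on the 18KO array. Transcripts of both compartments of endometrium were thus measured, but epithelium only by these 2 genes, each with some values under the column medians.

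The matrix genes moved in opposite directions on the 2 arrays. TNC and TIMP1 fell in pregnant endometrium, by 9.57-fold and 4.58-fold, and the other 3 genes of the 18KO array had values below 0 but were not called. TGM2, MEP1B and ABI3BP rose, by 3.28-fold, 4.78-fold and 3.73-fold. On the 18KO array 2 of 5 genes were called lower, where 3.87% of all genes and other clones of the array were, and 29.2% of its genes with 1 symbol. On the 18KB array 3 of 3 were called higher, where 15.6% of all and 77.9% of the genes with 1 symbol were, and so were their 4 clones, against 20.5% of all clones. Every pregnant animal lay below every control in TNC, TIMP1 and ADAMTS4, 3 of the 5 genes, as in 9.59% of all genes and other clones of the 18KO array. Every pregnant animal lay above every control in 3 of 3 genes of the 18KB array, as in 22.3% of all genes and other clones there. Such a share was not computed over the genes with 1 symbol only, which were chiefly named because they differed. The median change was -1.94 over the 5 genes and -0.02 over the whole 18KO array, and 1.90 over the 3 genes and 0.38 over the whole 18KB array. Over all genes with 1 symbol it was -1.34 on the 18KO array and 1.85 on the 18KB array, so the 3 genes lay near the level of any named gene there.

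**Figure D1:**
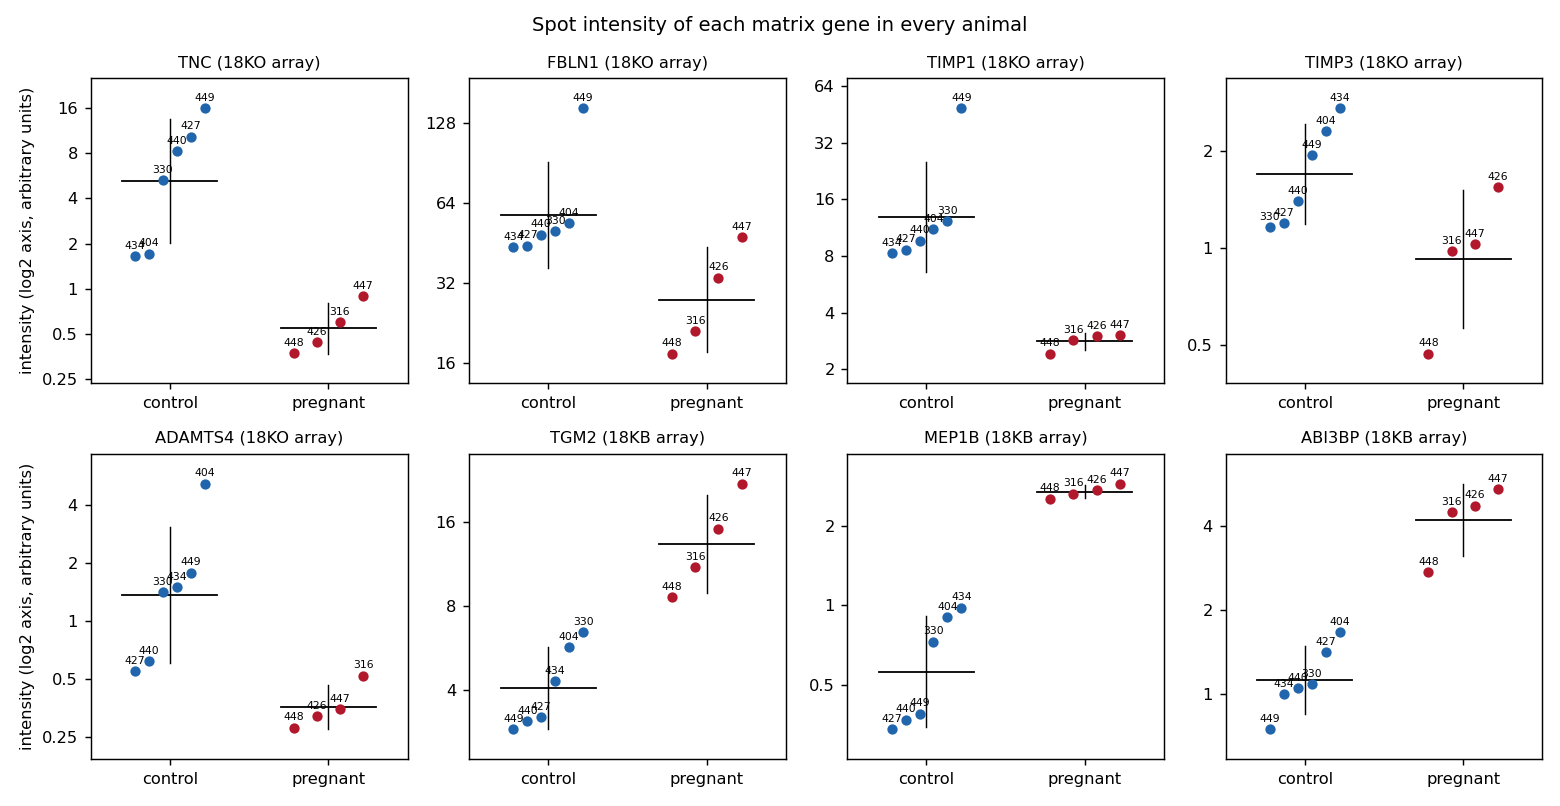
Spot intensity (arbitrary units, log2 axis) of each gene in the 6 control (blue) and 4 pregnant (red) heifers, labelled by animal number; TNC and TGM2 are geometric means over their clones. Horizontal lines are group means of log2 values and vertical lines 1 SD. The groups do not overlap for TNC, TIMP1, ADAMTS4, TGM2, MEP1B and ABI3BP, and they overlap for FBLN1 and TIMP3.

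TNC, tenascin-C, is a large matrix glycoprotein that loosens cell adhesion and is deposited where tissue is being remodelled. Over its 14 clones its geometric mean intensity was 0.603 in pregnant 316, 0.440 in 426, 0.900 in 447 and 0.373 in 448. In the controls it was 5.29 in 330, 1.72 in 404, 10.3 in 427, 1.65 in 434, 8.25 in 440 and 16.0 in 449. Every pregnant animal lay below every control, but the controls themselves spanned 9.70-fold, with 404 and 434 well below the other 4. The log2 fold change was -3.26 ± 0.59 (95% interval -4.53 to -1.99, limma adjusted p = 0.00291, n = 4 and 6), and 11 of the 1471 genes and other clones of the array had a lower value. The SD of the log2 level was 0.56 in pregnant animals and 1.37 in controls. Without pregnant 316, whose 18KO array was the repeated one, the change was -3.31 and still called; for the other genes of this array it was then -2.20 (TIMP1), -2.12 (ADAMTS4), -0.93 (FBLN1) and -0.90 (TIMP3). The call was lost without pregnant 426 (-3.15, adjusted p = 0.0144), without pregnant 448 (-3.07, adjusted p = 0.0142) and when low values were raised to 0.37, the 10th percentile of the array (-3.05, adjusted p = 0.0224), and over all alternatives the adjusted p ran from 0.000398 to 0.0224.

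The 14 TNC clones share a target and are not replicates of the condition, but they show how far the measurement depends on the spot. In each of the 14 clones all pregnant animals lay below all controls, where 12.2% of the clones of the array did so. Of the 14, 12 were called lower, against 6.32% of all clones of the array, and the other 2 had adjusted p-values of 0.0146 and 0.0148. The change ran from -4.25 to -2.23, a range wider than the standard error of any 1 of them. Of the 56 pregnant values 16 lay below the 10th percentile of the array, against 0 of 84 control values. All 14 clones ranked 404 and 434 as the lowest controls and 449 as the highest, so the spread among controls was repeated from clone to clone within each hybridisation. With TIMP1, 13 clones of the 5 genes were called, but 6 without pregnant 316, 5 without 426 and 4 without 448. The clones called lower over the whole array also dropped, from 97 of 1536 to 65, 54 and 47 under the same omissions.

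**Figure D2:**
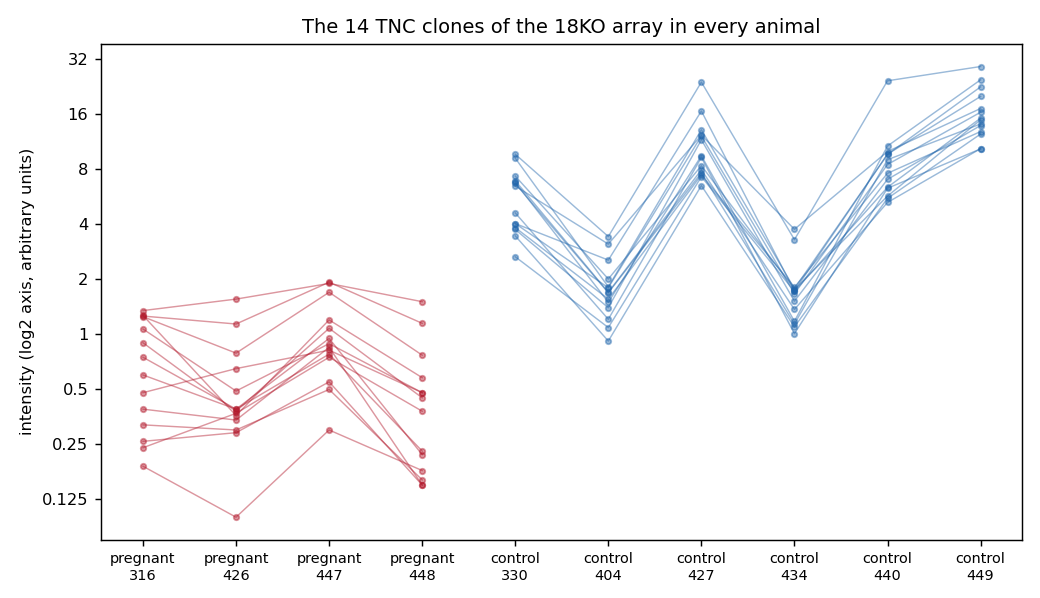
Intensity (arbitrary units, log2 axis) of the 14 TNC clones in each heifer, with 1 line per clone, red for the 4 pregnant animals and blue for the 6 controls. Each clone dips in controls 404 and 434 and peaks in control 449; pregnant values run from 0.10 to 1.93 and control values from 0.92 to 29.21.

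Stromal markers varied among the controls as well. The summed intensity of the 6 stromal markers named on the 18KO array (COL1A1, COL1A2, COL3A1, COL6A3, NR2F2 and FBLN1, the last a gene of this group) was 527 in 404, 472 in 434, 328 in 330, 657 in 440, 750 in 427 and 1090 in 449, and 69.5 to 275 in pregnant animals. Apart from 330, which had the lowest sum, the controls stood in the same order as in TNC on this array. On the 18KB array the order was not kept: the stromal sum was 653 in 404, 745 in 434 and 622 in 330, against 912 in 449, 1060 in 440 and 1420 in 427. The part of the stromal share in the spread of TNC was not tested. The column medians of 404 and 434 (2.70 and 2.75) lay within the range of all controls (2.02 to 3.90), and TNC was 0.639 and 0.600 times the column median there, against 2.37 to 5.07 times in the other controls and 0.202 to 0.414 times in pregnant animals.

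FBLN1, fibulin-1, a glycoprotein of basement membranes and elastic fibres, gave 21.1 in pregnant 316, 33.5 in 426, 47.5 in 447 and 17.3 in 448. Controls had 50.0 in 330, 53.8 in 404, 44.2 in 427, 43.7 in 434, 48.6 in 440 and 146 in 449. Pregnant 447 lay within the control range, and 5 of the 6 controls lay within 43.7 to 53.8. Its log2 fold change of -1.06 ± 0.38 was not called (limma adjusted p = 0.0833), and it was -0.79 without control 449 and -0.59 with array weights. The difference between the changes of TNC and FBLN1 was -2.20 ± 0.53 on the log2 scale (two-sided exact permutation p = 0.00952 over 210 splits of the 10 animals, 0.0571 after Benjamini-Hochberg adjustment over 6 such differences).

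TIMP1, a secreted inhibitor of matrix metalloproteases, gave an intensity reading of 2.87 in pregnant 316, 2.99 in 426, 3.03 in 447 and 2.42 in 448. In controls it was 12.2 in 330, 11.1 in 404, 8.65 in 427, 8.27 in 434, 9.66 in 440 and 48.9 in 449. The pregnant animals lay within 1.25-fold of each other, well apart from the controls, and control 449 was 4.01-fold above the next control. The log2 fold change was -2.19 ± 0.43 (95% interval -3.11 to -1.28, limma adjusted p = 0.00434), and it was -1.81 with an adjusted p of 0.00016 without control 449. Without any 1 of the pregnant animals the value stayed between -2.23 and -2.12 but the call was lost, with adjusted p of 0.0143 without 316, 0.0162 without 426, 0.0133 without 447 and 0.0185 without 448. The floor at the 10th percentile left the value at -2.19, since no TIMP1 value lay below it, and the adjusted p was 0.0196, with a range of 0.000145 to 0.0196 over all alternatives.

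TIMP3, an inhibitor that stays bound to the matrix and also blocks ADAMTS proteases, gave 0.980 in pregnant 316, 1.55 in 426, 1.03 in 447 and 0.470 in 448. Controls had 1.16 in 330, 2.31 in 404, 1.20 in 427, 2.73 in 434, 1.40 in 440 and 1.95 in 449. Pregnant 426 lay inside the control range, and the controls highest in TIMP3 were 404 and 434, the controls lowest in TNC. The log2 fold change was -0.87 ± 0.36 (95% interval -1.64 to -0.11) and was not called (limma adjusted p = 0.124); without pregnant 448 it was -0.55 (adjusted p = 0.323), and with equal column medians -0.54, in a range of 0.0201 to 0.323 of the adjusted p over all alternatives. The change of TIMP1 minus that of TIMP3 was -1.32 ± 0.51 (two-sided exact permutation p = 0.0476, adjusted p = 0.143), which did not pass after adjustment over the 6 differences.

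ADAMTS4, a protease that cuts aggrecan and other proteoglycans, was dim, at 0.520 in pregnant 316, 0.320 in 426, 0.350 in 447 and 0.280 in 448. In controls it was 1.41 in 330, 5.14 in 404, 0.550 in 427, 1.49 in 434, 0.620 in 440 and 1.78 in 449. The groups did not overlap, although the gap between pregnant 316 and control 427 was small, and 3 of the 4 pregnant values lay below the array's 10th percentile. Its log2 fold change of -1.94 ± 0.51 (95% interval -3.03 to -0.84) did not pass the threshold over the whole array (limma adjusted p = 0.0251). It passed when adjusted over the 72 genes with 1 symbol only (0.00456), with 1 scaling factor per animal from both arrays (0.00485), with array weights (0.00427) and without control 427 (0.00798), and the adjusted p ran from 0.00427 to 0.0811 over all alternatives. The change of ADAMTS4 differed from that of TIMP1 by 0.26 ± 0.56 (two-sided exact permutation p = 0.695) and from that of TIMP3 by -1.06 ± 0.51 (p = 0.0857, adjusted p = 0.15), with errors too wide to call any of these changes alike.

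Among the 6 controls no correlation between any of the 5 genes of the 18KO array passed after adjustment, and 6 animals are too few to tell whether the genes vary together. Of 10 pairs of these genes, TIMP1 and FBLN1 had the highest correlation of log2 levels (Pearson's r = 0.99, exact permutation p = 0.00694, adjusted p = 0.0694; Spearman's rho = 0.94, exact permutation p = 0.0167, adjusted p = 0.167). That relation leaned on control 449, and r was 0.79 over the 4 controls left without the 2 farthest in TIMP1. TNC and TIMP3 had an r of -0.63 (exact permutation p = 0.208, adjusted p = 0.52; rho = -0.49, exact permutation p = 0.356, adjusted p = 0.599), which was -0.90 after column medians were set equal but 0.82 over the 4 controls nearest the median of TNC, and so rested on the others.

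**Figure D3:**
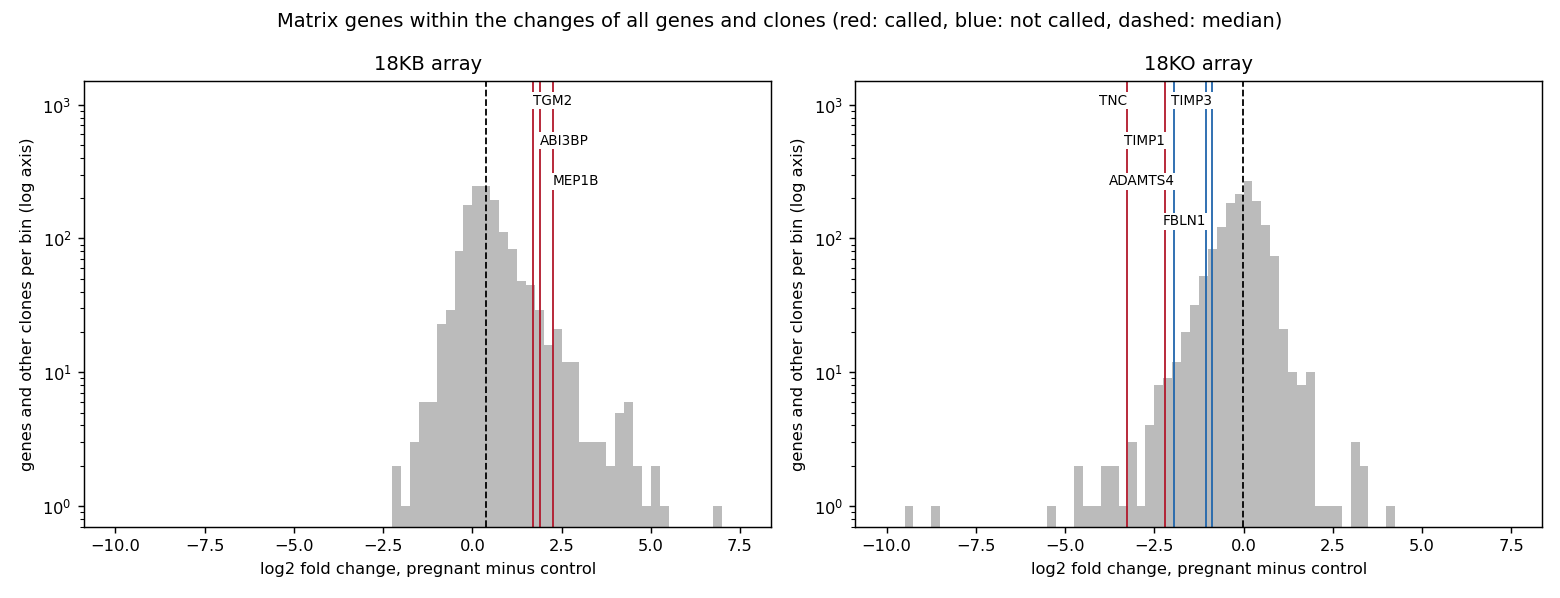
Histograms of the log2 fold change of all genes and other clones of the 18KB (1420) and 18KO (1471) arrays, on a log count axis, with the 8 genes as vertical lines (red where called, blue where not) and the median of the array dashed. TNC, TIMP1 and ADAMTS4 lie in the lower tail of the 18KO array, with 0.748%, 1.97% and 2.58% of the array below them, and 8.94%, 5.0% and 6.83% of the 18KB array lie above TGM2, MEP1B and ABI3BP.

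TGM2, a calcium-dependent enzyme that cross-links proteins of the matrix and the cytoplasm, had a geometric mean intensity over 2 clones of 11.0 in pregnant 316, 15.1 in 426, 21.9 in 447 and 8.59 in 448. Controls had 6.44 in 330, 5.69 in 404, 3.18 in 427, 4.30 in 434, 3.08 in 440 and 2.88 in 449. All pregnant animals lay above all controls, the lowest being 448. Its log2 fold change was 1.71 ± 0.31 (95% interval 1.03 to 2.39, limma adjusted p = 0.00152), 1.46 and 1.97 in its single clones, both called. The call depended on the scaling of the columns: with equal column medians the change was 0.88 (adjusted p = 0.0182) and after quantile normalization 0.95 (adjusted p = 0.021), in a range of 0.000167 to 0.021 over all alternatives. Relative to the column median TGM2 was 3.17 in pregnant 448, within the control range of 1.67 to 3.82.

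MEP1B, the beta subunit of meprin, a membrane-bound metalloprotease of epithelia that also processes procollagens, was the most even of the 8 genes in pregnant animals. Its intensity was 2.64 in 316, 2.72 in 426, 2.88 in 447 and 2.53 in 448, an SD of 0.08 on the log2 scale. Controls had 0.730 in 330, 0.900 in 404, 0.340 in 427, 0.980 in 434, 0.370 in 440 and 0.390 in 449, an SD of 0.69. The groups did not overlap, and 330, 404 and 434 were the higher controls. The log2 fold change was 2.26 ± 0.32 (95% interval 1.55 to 2.96, limma adjusted p = 0.000293), and it was 1.43 with equal column medians (adjusted p = 0.00374) and called under each alternative, with adjusted p of 1.96e-05 to 0.00992.

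ABI3BP, a matrix protein that binds the adaptor ABI3 and supports cell adhesion, gave 4.47 in pregnant 316, 4.72 in 426, 5.40 in 447 and 2.74 in 448. Controls had 1.09 in 330, 1.67 in 404, 1.42 in 427, 1.00 in 434, 1.05 in 440 and 0.750 in 449. Pregnant 448 was again the lowest pregnant animal, above all controls, but relative to the column median it did not stand apart (1.01, as in control 404). The log2 fold change was 1.90 ± 0.26 (95% interval 1.34 to 2.46, limma adjusted p = 0.000193), it was 1.07 with equal column medians, and it was called under each alternative with adjusted p of 1.53e-05 to 0.00179. The change of MEP1B exceeded that of TGM2 by 0.54 ± 0.30 (two-sided exact permutation p = 0.1, adjusted p = 0.15), and that of ABI3BP exceeded that of TGM2 by 0.19 ± 0.24 (p = 0.51, adjusted p = 0.612).

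**Figure D4:**
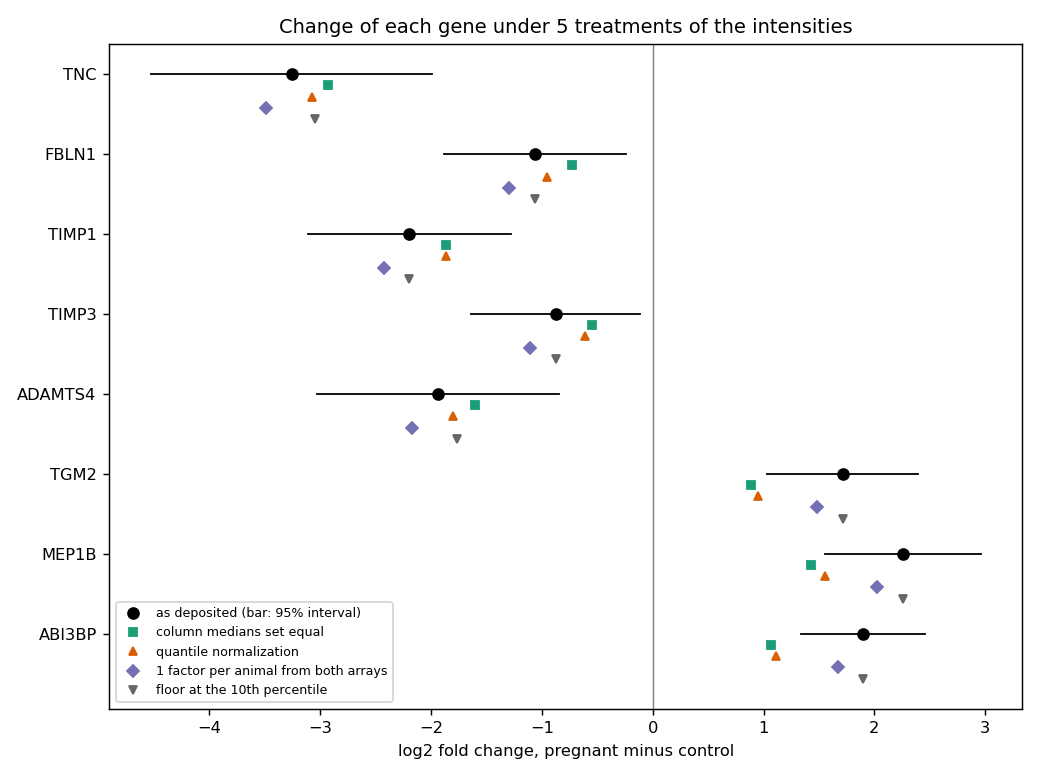
Log2 fold change (pregnant minus control) of the 8 genes from limma, as deposited (black, with 95% interval) and under 4 other treatments of the intensities (coloured marks). Each gene keeps its side of 0 throughout; TGM2 moves from 1.71 to 0.88 and MEP1B from 2.26 to 1.43 when column medians are set equal.

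On the 18KB array all 8 named markers of the response to the interferon of the conceptus were called higher. So were 2 of 3 named markers of the conceptus itself. Of all genes with 1 symbol on this array 77.9% were called higher. The 3 trophoblast markers named of 12 listed (TKDP1, TKDP4 and IFNT2) summed to 1.44 in pregnant 316, 8.05 in 426, 4.30 in 447 and 41.7 in 448. Controls summed to between 0.955 and 1.79. TKDP1 and IFNT2 were called higher (3.14 ± 0.78 and 2.16 ± 0.52) and TKDP4 was not (2.31 ± 0.74, limma adjusted p = 0.0326), and both calls were lost with other column scalings, among them equal medians (adjusted p = 0.0247 and 0.0421). TGM2, MEP1B and ABI3BP were above all controls in pregnant 316, where the trophoblast sum lay within the control range, and were lowest among pregnant animals in 448, where it was highest. MEP1B differed little among pregnant animals (2.53 to 2.88), and the part of conceptus RNA in the 3 rises was not tested. The 8 interferon-response genes (ISG15, MX1, MX2, RSAD2, IFIT3, UBA7, IFI6 and OAS1Z) had sums of 101 to 186 in pregnant animals and 6.57 to 8.54 in controls other than 427, which had 26.2. Control 427 had the lowest MEP1B of all animals (0.340, close to 0.370 in 440 and 0.390 in 449), a TGM2 of 3.18 and an ABI3BP of 1.42, the highest of the controls but for 404. How far the 3 rises go with the interferon response was not tested. Of the leukocyte list 1 of 7 genes was named, CD74, at 13.1 to 19.7 in pregnant animals and 4.86 to 8.12 in controls, and its part in the 3 rises was not tested.

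On the 18KO array markers of stroma and smooth muscle changed as well. The smooth muscle markers named, ACTA2 and MYLK (2 of 9), both fell, with sums of 4.81 to 9.33 in pregnant animals and 14.7 to 33.3 in controls. Of all genes with 1 symbol on this array 29.2% were called lower. The call of MYLK was lost when low values were raised to the 10th percentile (limma adjusted p = 0.0216). The epithelial markers named (2 of 8) had values of opposite sign and neither was called: CLDN4 had 1.96 ± 0.58 (limma adjusted p = 0.0393, or 0.00513 and called once column medians are set equal) and CLDN10 -1.93 ± 0.77 (limma adjusted p = 0.12). Their sums were 19.6 to 33.4 in pregnant animals and 7.16 to 20.8 in controls. CLDN4 made up most of the sum in pregnant animals (18.9 to 32.6, against 0.586 to 1.05 for CLDN10). In controls the ranges overlapped, at 1.75 to 19.7 for CLDN4 and 0.635 to 11.6 for CLDN10, so their sums mix both genes. None of the endothelial and blood markers (0 of 6) was named on either array. The part of these differences in the values of TNC, TIMP1, TIMP3, ADAMTS4 and FBLN1 was not tested. NR2F2, a stromal transcription factor, rose (1.52 ± 0.33, limma adjusted p = 0.00962) while the stromal collagens COL1A1, COL3A1 and COL6A3 fell. All of these calls were lost when low values were raised to the 10th percentile (limma adjusted p = 0.0219 for NR2F2, 0.0118 for COL1A1, 0.0233 for COL3A1 and 0.0103 for COL6A3).

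Other genes of the matrix were described from lists that are mostly of genes without a name on these arrays. Of 35 matrix proteases, 3 were named, and besides MEP1B and ADAMTS4 this was HTRA1, a secreted serine protease, which fell (-1.41 ± 0.28, limma adjusted p = 0.00438), a call lost with its brightest clone alone (adjusted p = 0.011). Of 16 protease inhibitors, 5 were named on the 18KO array. Beside the TIMPs, SERPING1, which inhibits the complement protease C1, rose there (2.47 ± 0.27) and on the 18KB array (1.64 ± 0.18, or 0.81 and under 2-fold with equal column medians), and the collagen chaperone SERPINH1 (-1.46 ± 0.33) and the uterine serpin SERPINA14 (-1.37 ± 0.88) were not called.

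Of 43 matrix glycoproteins and proteoglycans, 6 were named on the 18KO array. Of these 4 fell and 2 were not called: besides TNC, those that fell were OLFM2, an olfactomedin (-3.81 ± 0.72, but -0.47 and not called with the floor at the 10th percentile), SPARC, a collagen-binding glycoprotein (-1.53 ± 0.31, a call lost with that floor), and THBS2, a thrombospondin (-1.32 ± 0.28, a call lost at -0.99 once column medians are set equal), while FN1, fibronectin, had -1.35 ± 0.36 and was not called, like FBLN1. The 3 named on the 18KB array rose, ABI3BP with the basement membrane proteoglycan AGRN (2.21 ± 0.28) and LGALS3BP, a galectin ligand (1.61 ± 0.31, likewise lost, at 0.78). TGM2 was the only cross-linking enzyme named, apart from SERPINH1 as a collagen-modifying protein, of 14 listed. The collagens were called lower in 5 of 5 named genes on the 18KB array (median -1.69) and in 4 of 6 on the 18KO array (median -1.76). Of all genes with 1 symbol, 9 of 86 and 21 of 72 were called lower on these arrays. The collagen counts were 1 of 6 on the 18KO array with the floor at the 10th percentile and 1 of 5 on the 18KB array with age as a covariate. Of 27 receptors and signals, PMEPA1, a target of transforming growth factor beta, fell (-2.08 ± 0.36) and SDC2, a cell surface proteoglycan, was not called (-1.34 ± 0.39).

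The named genes whose profiles over the 10 animals were most like those of the matrix genes were found by the root mean square difference of log2 values, each gene centred on its own mean. Nearest to TNC were COL6A3 (0.66) and PMEPA1 (0.84), against a median of 1.35 over the 71 genes compared, and nearest to TIMP1 were PMEPA1 (0.43) and S100G (0.50). FBLN1 was nearest to ANXA2 (0.31) and SMOC2 (0.34), TIMP3 to ZYX (0.40) and RBP4 (0.45), and ADAMTS4 to HSPA5 (0.66) and A4GALT (0.66). On the 18KB array, with 85 genes compared, TGM2 was nearest to C1R (0.32) and GABARAPL1 (0.33), MEP1B to ABTB1 (0.33) and ACSS1 (0.43), and ABI3BP to CRY2 (0.23) and PARP9 (0.29). None of these nearest genes (0) was another of the 8, and no shared function is implied.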

How the data were processed

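The authors deposited linear spot intensities of radioactive cDNA hybridisations; their background correction and column scaling are not given in the sources used here. Values under 0.01 were set to 0.01 before taking log2. Clone names come from the platform's annotation, which can be old; by gene identifier all 8 symbols were the same in RefSeq (ARS-UCD2.0). Clones with 1 symbol were averaged per gene (86 and 72 genes), and all other clones stayed single, giving 1420 and 1471 features. These, and separately all 1536 clones of each array, were compared by lmFit and eBayes of limma 3.58.1 in R 4.3.3, checked on simulated data, with Benjamini-Hochberg adjustment over the whole array. Each animal counts as 1 replicate. Figures used matplotlib 3.10.9. All 8 genes are given; up to 4 genes of each list with the smallest p, and the 2 most alike genes, are named. COL6A3, NR2F2 and the marker genes were named as markers. The genes, lists and tests were chosen with earlier results of these data known. Alternatives were other scalings, floors, filters, adjustments, priors, weights, age as a covariate, the brightest clone and leaving out each animal. Sequences and genome positions are not used here.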

Additional observations from a re-analysis of the deposited data

Results flagged for a closer look

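Control 449 stood apart from the other controls in 2 of 16 groups of values examined, each gene in the pregnant and in the control animals. TIMP1 had an intensity of 48.9 there, and the gap to the next control exceeded Dixon's 95% critical value for 6 animals on the log2 scale. FBLN1 had 146 there, with a gap that exceeded the same value. Chance alone marks about 1 in 20 groups. The 18KO column of control 449 had the highest median of the array (3.90), and relative to that median TIMP1 was still 12.6 against 3.01 to 5.46 in the other controls, and FBLN1 37.4 against 15.9 to 22.4.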

How the results depend on the processing

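Each of the 8 genes kept its direction under all alternatives run, except that ADAMTS4 has no value without the dimmest 25% of clones, which leaves its clone out. On the 18KB array the called member genes numbered 3 and stayed within 2 to 3, and the 4 called clones became 2 after quantile normalization and 3 to 4 without single animals. On the 18KO array the 2 called genes became 0 with a floor at the 10th percentile, where 5 had an unadjusted limma p under 0.05, and 0 to 3 without single animals: 1 without pregnant 316 or 447, and 0 without 426 (5 unadjusted) or 448 (3 unadjusted). The 13 called clones became 1 with that floor and 4 to 15 without single animals. Over the whole array 97 clones were called lower, then 59 with that floor and 47 to 100 without single animals. Of its genes and other clones 57 were called lower, then 39 with that floor and 24 to 62 without single animals. The cause was not tested. The median change of all clones was 0.44 on the 18KB array (315 clones called higher, 11 lower), and with equal column medians -0.39 (152 and 174). For the 18KO array it was -0.06 (18 and 97) and became 0.27 (82 and 93). Quantile normalization gave 178 and 139, and 53 and 104. With 1 factor per animal the clones split into 240 and 26, and 15 and 224. A block for the 3 columns of the 18KB array that hold no value at or below 0.01, added once the data had been seen, kept all 3 calls there. The number of animals limits the precision, and pregnant spots of ADAMTS4 and TNC were dim. The MEP1B spots of controls 427, 440 and 449 (0.340, 0.370 and 0.390) lay just above the 10th percentile of the 18KB array (0.32). No paired analysis was possible because pregnant and control animals share no number and none of the 8 genes is on both arrays.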
